A study of Homo sapiens with 12 samples.

Results

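The nuclear genes of respiratory complexes II to V were followed across 12 polyadenylated RNA libraries of LX2, an established human cell line derived from hepatic stellate cells. Members were chosen by name among protein-coding genes, without use of any measured value: SDHA to SDHD and the SDHAF genes, CYC1 and the UQCR genes, the COX genes with a number, and the ATP5 genes. This gave 64 of the 60612 genes listed, of which 8 belong to complex II, 10 to complex III, 26 to complex IV and 20 to complex V. The cells were of the wild type, as labelled, and were starved of serum for 16 h from 24 h after seeding. In 4 libraries (STINGX+TGFb) a compound known here by its code name, STINGX, was added at 10 µM and TGFb at 5 ng/ml followed 3 h later for 16 h. In 4 libraries (TGFb) they received only TGFb at 5 ng/ml for 16 h, and in 4 libraries (control) they were left untreated. No group with STINGX alone was analysed here, so the compound was measured only on top of TGFb. The labels do not say that the 4 libraries of a group came from separate cultures, and p-values therefore measure the spread between these libraries, which may be technical.

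These complexes lie in the inner mitochondrial membrane and carry out the last steps of respiration. Complex II is succinate dehydrogenase, which oxidises succinate in the citric acid cycle and hands the electrons to ubiquinone. Complex III passes electrons from ubiquinol to cytochrome c and complex IV, cytochrome c oxidase, passes them to oxygen, both adding to the proton gradient that complex V, the ATP synthase, spends to make ATP. Complex II is built from nuclear gene products alone, whereas the other complexes also hold subunits encoded by mitochondrial DNA. Assembly factors insert haem, copper, flavin or iron-sulfur groups or hold subunits during building and are not part of the finished enzymes. Transcription of many of these nuclear genes is known to depend on the factors NRF1 and GABPA, which is of the ETS family.

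Library totals ran from 54035320 to 70787741 estimated counts. Markers of stellate cells or fibroblasts (10 of 12 tested, LRAT and DES at 0 counts) summed to 5226 to 5701 CPM in STINGX+TGFb, 10709 to 11006 CPM in TGFb and 6454 to 6514 CPM in control libraries. With STINGX 6 of the 10 were lower and 3 higher (median log2 -0.80), among them the collagen gene COL1A1 at a mean of 1644 CPM in STINGX+TGFb, 6367 CPM in TGFb and 2307 CPM in control libraries, while VIM had mean levels of 3006, 2985 and 2951 CPM. Markers of hepatocytes summed to 3.85 to 4.24 CPM in STINGX+TGFb, 5.21 to 6.39 CPM in TGFb and 8.06 to 10.7 CPM in control libraries, with 2 of 8 tested and ALB, APOB and TTR at 0. Those of macrophages and leukocytes, 4 of 6 tested and mainly CD68, summed to 74.7 to 90.0 CPM in STINGX+TGFb, 30.2 to 35.6 CPM in TGFb and 72.8 to 80.8 CPM in control libraries, with PTPRC at a mean of 0.255 CPM or less. Those of muscle (1 of 7 tested, MYH7 at 0) summed to 1.95 to 2.37 CPM, 2.60 to 3.81 CPM and 1.56 to 1.91 CPM in the same groups, those of epithelium (2 of 5 tested) to 29.4 to 30.7, 56.7 to 65.1 and 44.7 to 48.8 CPM, and those of endothelium (5 of 5) to 10.8 to 13.5, 13.6 to 14.8 and 10.7 to 12.1 CPM. The part of other cell types in the results was not tested.

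The control libraries fell into 2 pairs for the respiratory genes, and this bears on every comparison with control. Control replicates 1 and 2 both lay above replicates 3 and 4 for 45 of the 59 respiratory genes tested (76.3%), and both lay below for 1. Among all genes tested both lay above for 23.5% and both below for 23.6%. The same pair stood higher for 67 of 89 cytosolic ribosomal protein genes (75.3%) and 27 of 48 nuclear genes of complex I (56.3%). The median respiratory gene deviated from its control mean by 0.11 and 0.13 on the log2 scale in replicates 1 and 2 and by -0.10 and -0.13 in replicates 3 and 4. TGFb replicates 1 and 2 also lay above their mean (0.06 and 0.03) and replicates 3 and 4 below it (-0.04 and -0.04). The labels name no batch, so results against control are given below with and without each pair, a choice made after seeing the split.

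**Figure D1:**
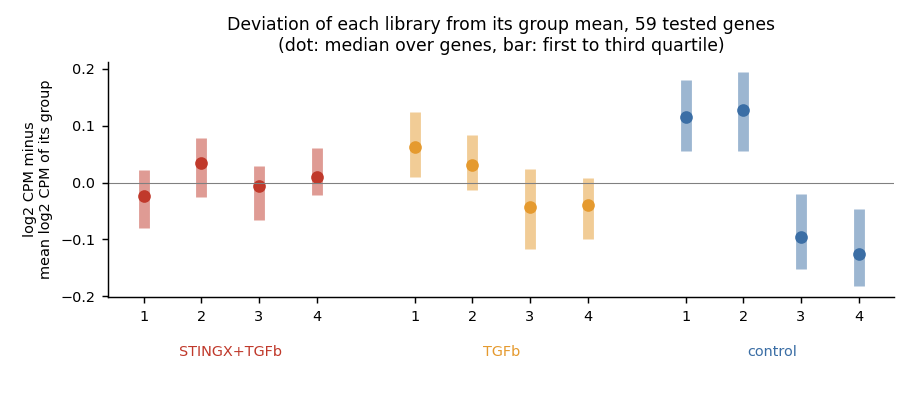
Deviation of each library from the mean log2 CPM of its own group, over the 59 tested nuclear genes of complexes II to V; dots are medians, bars run from the first to the third quartile, and the x axis gives the replicate number. Control replicates 1 and 2 lie above 0 (medians 0.11 and 0.13) and replicates 3 and 4 below it (-0.10 and -0.13), and TGFb libraries split the same way by less (0.06 and 0.03, -0.04 and -0.04).

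Of the 64 genes, 59 passed the filter on low counts. The 5 that did not were forms known from other tissues or rarely used copies. COX4I2, the lung and oxygen-sensitive form of subunit 4, and COX6A2, the heart and muscle form of subunit 6A, had 0 counts in all 12 libraries, where 3 counts would equal 0.0424 to 0.0555 CPM in a library. COX7B2 reached at most 15 counts in a library, COX8C at most 3 and ATP5MGL at most 2. Levels per transcript length were compared in TPM, computed from the deposited transcript counts, because the lengths implied by the deposited FPKM values were a median 2.42 times the count-weighted transcript lengths of these genes (range 0.740 to 7.90).

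On that scale COX6A1 ranked first of the 64 with 640.4 TPM over all libraries, followed by ATP5MF with 497 TPM, COX8A with 475 TPM and ATP5F1B with 368 TPM. COX6A1 averaged 503 ± 10.9 TPM in STINGX+TGFb, 693 ± 15.5 TPM in TGFb and 725 ± 83.7 TPM in control libraries (SD, n = 4 each). COX4I1 averaged 267 ± 3.73 TPM in STINGX+TGFb, 296 ± 24.2 TPM in TGFb and 333 ± 37.6 TPM in control libraries. COX7A1, the heart and muscle form of subunit 7A, averaged 7.46 ± 1.57 TPM in STINGX+TGFb, 5.55 ± 0.808 TPM in TGFb and 7.77 ± 2.21 TPM in control libraries. COX7A2, the general form, averaged 133 ± 11.2 TPM, 152 ± 10.7 TPM and 179.8 ± 72.7 TPM in the same groups, well above it. Among the 3 genes that encode the same mature subunit c of the ATP synthase, ATP5MC2 led with 218 TPM over all libraries, ahead of ATP5MC1 with 112 TPM and ATP5MC3 with 39.8 TPM. The order ATP5MC2, ATP5MC1, ATP5MC3 held in every group without overlap of libraries. It rests on estimated count-weighted lengths, 4524 bases for ATP5MC3 and 1050 bases for ATP5MC1. In CPM, which is not scaled by length, ATP5MC3 lay above ATP5MC1 in every library. Within STINGX+TGFb ATP5MC3 ran from 31.3 to 45.3 TPM but only from 50.3 to 50.8 CPM, so its TPM level is uncertain. Within complex II, SDHA stood at 293 TPM over all libraries, above SDHB (87.1), SDHC (83.4) and SDHD (64.6), and SDHB and SDHC overlapped in every group. Assembly factors ranged from 4.41 TPM for SDHAF4 to 64.1 TPM for COX14, a range that also holds subunits such as UQCRB (35.9 TPM), UQCRFS1 (41.9 TPM) and ATP5F1D (44.1 TPM). By the deposited FPKM the 3 highest were COX8A (210.3 FPKM), ATP5F1B (125 FPKM) and COX6A1 (118 FPKM).

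Promoter stretches are shown for the genes that fell most with STINGX, among the 8 largest falls, where the RefSeq promoter table (GRCh38.p14) held one: COX8A, COX6A1, SDHA, UQCR10 and ATP5IF1. Each ends at the base before the RefSeq start, which can differ from the gene start in the files, and is written 5′ to 3′ on the gene's strand. Capitals mark the ETS word CCGGAAG, read on either strand, and the NRF1-type word GCGCANGCG.
COX8A, chr11:63974530-63974619, plus strand: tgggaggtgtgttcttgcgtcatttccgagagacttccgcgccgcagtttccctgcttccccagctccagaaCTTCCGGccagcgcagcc
COX6A1, chr12:120438023-120438112, plus strand: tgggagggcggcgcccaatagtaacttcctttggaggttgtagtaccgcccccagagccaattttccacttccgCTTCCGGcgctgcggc
SDHA, chr5:218140-218319, plus strand: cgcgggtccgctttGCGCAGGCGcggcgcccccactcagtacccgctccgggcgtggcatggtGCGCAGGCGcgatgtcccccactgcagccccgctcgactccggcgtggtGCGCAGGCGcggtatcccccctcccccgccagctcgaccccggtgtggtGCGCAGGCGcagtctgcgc
UQCR10, chr22:29767279-29767368, plus strand: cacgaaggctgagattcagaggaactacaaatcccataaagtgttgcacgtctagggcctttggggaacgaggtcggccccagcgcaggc
ATP5IF1, chr1:28236034-28236123, plus strand: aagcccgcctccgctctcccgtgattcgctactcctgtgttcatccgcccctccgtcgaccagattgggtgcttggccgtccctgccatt
COX8A and COX6A1 each held the ETS word on the opposite strand, beginning 18 and 16 bases before the start. SDHA held GCGCAGGCG 4 times, each copy 49 bases from the one before and the last beginning 19 bases before the start. In UQCR10 a GCGCANGCG word began 8 bases before the start and ran past it, so its letters stay in lower case, and the ATP5IF1 stretch held no searched word. Over the 45 tested respiratory genes with a promoter in the table (250 bases before to 50 after the start), 20 held the ETS word on either strand (44.4%), against 10.3% of all 35116 promoters and 15.2% of the promoters of tested genes. GCGCANGCG was found in 13 (28.9%), against 7.52% and 11.4%, and its stricter form GCGCATGCG, which it includes, in 5 (11.1%), against 1.92% and 2.82%. The YY1 word AAGATGGCG was in 4 (8.89%, against 1.75% of all promoters and 2.94% of those of tested genes), the CREB word TGACGTCA in 3 (6.67%, against 1.85% and 2.58%) and the SP1 word GGGGCGGGG in 7 (15.6%, against 15.7% and 23.7%). These are matches of letters and not measured binding.

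Subunits of all 4 complexes were lower in TGFb-treated cells that had received STINGX, and no respiratory gene passed the test as higher. In STINGX+TGFb against TGFb, 21 of the 59 genes tested were lower and 0 higher (edgeR quasi-likelihood test, Benjamini-Hochberg adjusted p under 0.05 over 21328 genes), where 13.8% of all genes tested were lower and 13.7% higher. Changes of the 21 ran from -42.6% to -15.1%, and for all 21 the 4 STINGX+TGFb libraries lay below all 4 TGFb libraries. Over all 59 genes this held for 25, and over all genes tested for 15.7%. The median log2 fold change was -0.18 over the 59 genes and 0.01 over all genes tested, and 51 of the 59 were negative. All 21 were subunits of the general form or the inhibitor ATP5IF1: 2 of 8 genes of complex II, 5 of 10 of complex III, 5 of 22 of complex IV and 9 of 19 of complex V. None of the 13 assembly factors passed (median -0.08), and the difference between subunits and assembly factors was not tested. With scaling by library total alone, which moved the median of all genes to 0.15, the split was 2 higher (ATP5PD and COX18) and 13 lower, where 23.4% of all genes were higher and 8.86% lower, and the median of the 59 was -0.04. UQCRC1, UQCRFS1, UQCRQ, COX4I1, COX5B, ATP5MC1, ATP5MC3 and ATP5PF lost their call with that scaling.

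Fewer genes passed between TGFb and control cells, and their number depended on which controls were used. In TGFb against control, 11 of the 59 were lower and 0 higher, where 12.8% of all genes tested were lower and 13.2% higher. Changes of the 11 ran from -22.7% to -11.0%, the libraries of the 2 groups did not overlap for any of the 11 (13.1% of all genes tested lay below without overlap), and the median log2 fold change was -0.15, against 0.00 over all genes. Without control replicates 1 and 2 there were 3 lower (SDHA, ATP5MC2 and ATP5PD) and 2 higher (CYC1 and UQCRC2), where 2218 of all 22770 genes tested (9.74%) were lower and 2386 higher. Without control replicates 3 and 4 there were 31 lower and 0 higher, where 12.5% of all genes tested were lower and 11.7% higher. SDHA, ATP5MC2 and ATP5PD were lower in both of these fits.

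Between the cells given both agents and untreated cells the most genes passed. In STINGX+TGFb against control, 39 of the 59 were lower and 0 higher, where 17% of all genes tested were lower and 17.2% higher, with a median log2 fold change of -0.38, against 0.00 over all genes. By complex, 4 of 8 genes of complex II, 8 of 10 of complex III, 11 of 22 of complex IV and 16 of 19 of complex V were lower. Changes of the 39 ran from -50.5% to -12.3%, and for 32 of the 39 the libraries of the 2 groups did not overlap. Over all 59 genes 35 lay below control without overlap, and over all genes tested 16.7%. There were 27 lower without control replicates 1 and 2 and 46 without replicates 3 and 4, where 13.1% and 15.6% of all genes tested were lower. This comparison shares its libraries with the other 2 and is not independent of them.

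**Figure D2:**
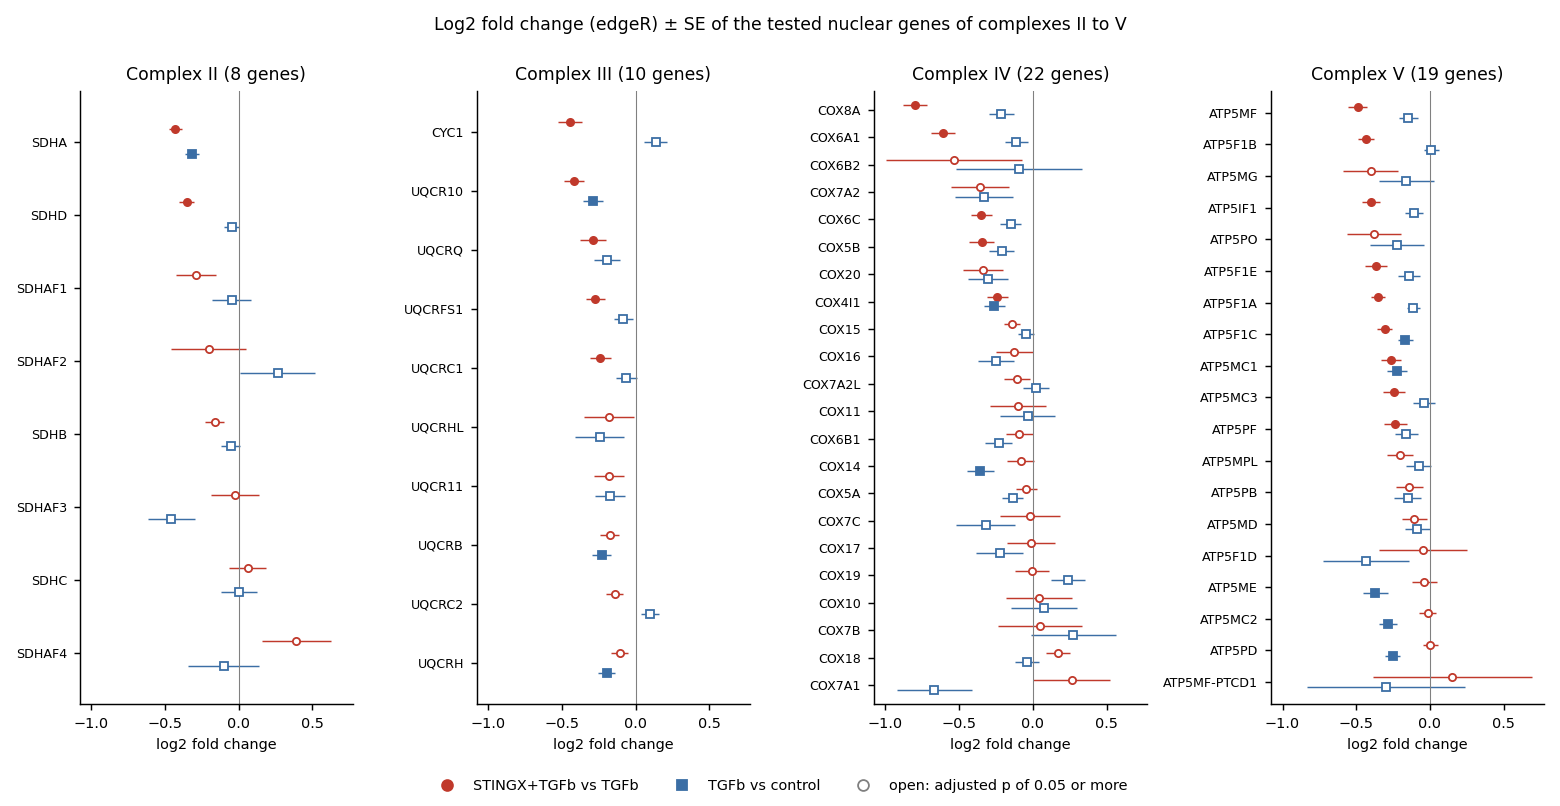
Log2 fold change (edgeR) ± SE of the 59 tested genes, by complex, for STINGX+TGFb against TGFb (circles) and TGFb against control (squares); filled symbols passed an adjusted p under 0.05. No filled symbol lies above 0, and the 21 filled circles are spread over all 4 complexes, led by COX8A at -0.80.

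In complex II the catalytic subunit fell in each comparison while its partners differed. SDHA (ENSG00000073578, chromosome 5, 218241 to 257082), the flavoprotein that binds succinate, had 256, 239.9, 231 and 238 CPM in STINGX+TGFb libraries, 332, 316, 339 and 314 CPM in TGFb libraries and 434, 398, 391 and 397 CPM in control libraries. The 3 groups did not overlap and were ordered with STINGX+TGFb lowest and control highest. Its log2 fold change was -0.43 ± 0.05 SE in STINGX+TGFb against TGFb (edgeR, adjusted p = 1.31e-05) and -0.32 ± 0.05 in TGFb against control (adjusted p = 0.000192). It kept its call in all 28 alternative fits of each comparison. The gene overlaps another tested gene on the same strand. SDHD, one of the membrane anchors, had 37.9, 38.6, 36.2 and 38.3 CPM in STINGX+TGFb libraries, 47.8, 49.0, 46.0 and 50.3 CPM in TGFb libraries and 53.2, 47.3, 48.2 and 51.0 CPM in control libraries. STINGX+TGFb libraries lay below all others, and TGFb libraries overlapped control libraries (log2 -0.35 ± 0.05 SE with STINGX, edgeR adjusted p = 0.000243, and -0.05 ± 0.05 with TGFb, adjusted p = 0.556). SDHB, the iron-sulfur subunit, had 39.4, 43.9, 47.2 and 44.0 CPM in STINGX+TGFb libraries, 50.5, 48.1, 50.6 and 46.2 CPM in TGFb libraries and 54.9, 50.9, 50.9 and 46.5 CPM in control libraries. Its groups overlapped, and its log2 value of -0.16 with STINGX did not pass (adjusted p = 0.0897). Against control, SDHB was lower in STINGX+TGFb (-0.22, edgeR adjusted p = 0.0223), a call lost in 7 of 28 alternative fits. SDHC, the other anchor, had 52.6, 59.5, 55.9 and 55.6 CPM in STINGX+TGFb libraries, 57.1, 60.1, 43.6 and 53.7 CPM in TGFb libraries and 64.2, 41.3, 55.4 and 53.0 CPM in control libraries, with a log2 value of 0.06 that did not pass (edgeR adjusted p = 0.77). The 4 SDHAF assembly factors ranged in log2 from -0.29 to 0.39 in STINGX+TGFb against TGFb and none passed, and in STINGX+TGFb against control SDHAF3, which helps to insert iron-sulfur clusters into SDHB, was lower (-0.48, edgeR adjusted p = 0.0304).

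Counts of SDHA could be divided with its pseudogene copies SDHAP1, SDHAP2 and SDHAP3, which together held 18.3% as many counts as SDHA itself. SDHAP1 averaged 29.9 ± 0.626 CPM in STINGX+TGFb, 26.4 ± 1.91 CPM in TGFb and 24.2 ± 2.22 CPM in control libraries (SD, n = 4 each), against 241 ± 10.4, 325 ± 12.2 and 405 ± 19.5 CPM for SDHA. SDHAP1 had log2 values of 0.18 with STINGX and 0.13 with TGFb that did not pass (edgeR adjusted p = 0.0920 and 0.252), and it was higher in STINGX+TGFb than in control (0.31, adjusted p = 0.00606), where SDHA was lower. SDHAP3 had -0.21 with STINGX (edgeR adjusted p = 0.101) and -0.21 in STINGX+TGFb against control (adjusted p = 0.0757).

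In complex III the subunits that carry electrons fell with STINGX. CYC1, which encodes the haem protein cytochrome c1, had 52.8, 51.5, 54.4 and 58.1 CPM in STINGX+TGFb libraries, 80.3, 77.2, 70.2 and 67.7 CPM in TGFb libraries and 73.2, 73.3, 60.6 and 62.3 CPM in control libraries. All STINGX+TGFb libraries lay below every other library, and TGFb libraries overlapped control libraries. The log2 fold change was -0.45 ± 0.08 SE against TGFb (edgeR adjusted p = 0.000916) and 0.13 ± 0.08 in TGFb against control (adjusted p = 0.249). UQCRFS1, the Rieske iron-sulfur protein, fell by 0.27 on the log2 scale with STINGX (adjusted p = 0.00705) and UQCRC1, a core subunit, by 0.24 (adjusted p = 0.0226). Neither call held with library total scaling. UQCRC2, the other core subunit, had a log2 value of -0.14 and did not pass (adjusted p = 0.101).

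Among the small subunits of complex III, UQCR10 changed most. It had 40.2, 43.4, 38.6 and 40.1 CPM in STINGX+TGFb libraries, 57.3, 53.0, 55.0 and 51.5 CPM in TGFb libraries and 70.7, 72.2, 61.9 and 60.2 CPM in control libraries. The 3 groups did not overlap, and the log2 fold change was -0.42 ± 0.07 SE in STINGX+TGFb against TGFb (edgeR adjusted p = 0.000557) and -0.29 ± 0.07 in TGFb against control (adjusted p = 0.00679). The fall with TGFb did not pass without control replicates 1 and 2 (adjusted p = 0.0714), and the gene overlaps another on the opposite strand. UQCRB, which lies at the ubiquinone site, had 49.1, 51.5, 49.8 and 57.7 CPM in STINGX+TGFb libraries, 61.7, 56.6, 61.0 and 56.0 CPM in TGFb libraries and 71.6, 73.7, 65.1 and 65.7 CPM in control libraries. TGFb libraries were all below control libraries (-0.23 ± 0.07 SE, edgeR adjusted p = 0.0196), but the call was lost in 5 of 28 alternative fits, among them the one without control replicates 1 and 2 (adjusted p = 0.171), and STINGX+TGFb libraries overlapped TGFb libraries. UQCRQ fell with STINGX by 0.29 on the log2 scale (adjusted p = 0.0245), a call lost with library total scaling. UQCRH, the acidic hinge protein that contacts cytochrome c1, fell with TGFb by 0.20 (adjusted p = 0.0211). UQCR11 and UQCRHL, an intronless copy of UQCRH, passed at neither step.

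In complex IV the largest change of all 59 genes was that of COX8A (ENSG00000176340, chromosome 11, 63974620 to 63976543), a small subunit in its general form. COX8A had 76.8, 82.8, 77.3 and 77.1 CPM in STINGX+TGFb libraries, 142, 137, 139 and 129.6 CPM in TGFb libraries and 175, 181, 142 and 137 CPM in control libraries. Every STINGX+TGFb library lay below every other library, while TGFb libraries overlapped control replicates 3 and 4. The log2 fold change was -0.80 ± 0.08 SE in STINGX+TGFb against TGFb, or -42.6% (edgeR adjusted p = 1.11e-05), and -0.21 ± 0.08 in TGFb against control (adjusted p = 0.0767). COX6A1 (ENSG00000111775, chromosome 12, 120438090 to 120440730), the form of subunit 6A used outside heart and muscle, had 134, 139.9, 137 and 133 CPM in STINGX+TGFb libraries, 216, 214, 199 and 202 CPM in TGFb libraries and 245, 259, 197 and 197 CPM in control libraries. Every STINGX+TGFb library lay below every other library, and the TGFb libraries lay between the control pairs. The log2 fold change was -0.61 ± 0.08 SE with STINGX (edgeR adjusted p = 9.85e-05) and -0.11 ± 0.08 with TGFb (adjusted p = 0.361). Both genes kept the STINGX call in all 28 alternative fits. Neither overlaps a tested gene, COX8A has no named copy, and the 2 copies of COX6A1 held 2.13% as many counts as it did.

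COX4I1, the general form of subunit 4, had 109.8, 112, 110.0 and 110.0 CPM in STINGX+TGFb libraries, 138, 128, 129 and 127 CPM in TGFb libraries and 177, 169, 139 and 142 CPM in control libraries. The 3 groups followed one another without overlap, at -0.24 ± 0.07 SE for STINGX+TGFb against TGFb (edgeR adjusted p = 0.0233) and -0.26 ± 0.07 for TGFb against control (adjusted p = 0.0162). The first call was lost in 8 of 28 alternative fits: with library total scaling, in the 3 FPKM fits, and without TGFb replicate 1 or STINGX+TGFb replicate 1, 3 or 4 (log2 -0.26 to -0.10 over all fits). The second was lost without control replicates 1 and 2 (adjusted p = 0.104). COX5B and COX6C, nuclear subunits around the mitochondrially encoded core, fell with STINGX by 0.35 and 0.35 on the log2 scale (edgeR adjusted p = 0.0074 and 0.00286). The COX5B call was lost with library total scaling. The other 5 subunits of the general form, COX5A, COX6B1, COX7A2, COX7B and COX7C, did not pass, at log2 values of -0.36 to 0.05.

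COX7A2, the general form of subunit 7A, varied with 1 control library. It had 42.3, 43.8, 48.3 and 44.9 CPM in STINGX+TGFb libraries, 55.7, 59.3, 58.9 and 56.1 CPM in TGFb libraries and 64.8, 114, 54.4 and 56.2 CPM in control libraries. Control replicate 2 lay far above the other 3, and the log2 value in STINGX+TGFb against control was -0.69 ± 0.20 SE (edgeR adjusted p = 0.0196). In STINGX+TGFb against TGFb the groups did not overlap, but the value of -0.36 ± 0.20 did not pass (adjusted p = 0.219). Without control replicates 1 and 2 it passed (adjusted p = 0.000374), and the value against control was then -0.31. COX7A1 had 1.88, 2.70, 2.59 and 2.01 CPM in STINGX+TGFb libraries, 2.32, 1.95, 1.82 and 1.50 CPM in TGFb libraries and 4.27, 2.99, 1.78 and 3.14 CPM in control libraries, and it passed in none of the comparisons (edgeR adjusted p = 0.514 for STINGX+TGFb against TGFb and 0.0738 for TGFb against control). COX6B2, a testis form, stayed under 1.1 CPM in every library, and COX7A2L, which helps to join complexes III and IV, passed in no comparison.

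Of the 9 assembly factors of complex IV none passed in STINGX+TGFb against TGFb, with log2 values from -0.34 to 0.17. COX14, which couples synthesis of the core subunit COX1 to assembly, had 18.7, 16.8, 18.7 and 18.9 CPM in STINGX+TGFb libraries, 21.6, 21.0, 16.9 and 17.7 CPM in TGFb libraries and 27.2, 25.2, 23.5 and 23.2 CPM in control libraries. STINGX+TGFb and TGFb libraries overlapped, and TGFb libraries lay below control libraries (-0.36 ± 0.09 SE, edgeR adjusted p = 0.0109). That call did not hold without control replicates 1 and 2 (adjusted p = 0.103), and the gene overlaps another on the same strand. COX20, a chaperone of the core subunit COX2, had 8.06, 11.6, 7.28 and 9.78 CPM in STINGX+TGFb libraries, 11.6, 11.2, 11.1 and 12.7 CPM in TGFb libraries and 12.1, 14.9, 14.8 and 15.7 CPM in control libraries. Its log2 value with STINGX was -0.34 ± 0.14 SE (edgeR adjusted p = 0.0891, and 0.0172 without STINGX+TGFb replicate 2). It was lower in STINGX+TGFb than in control libraries without overlap (-0.64 ± 0.13 SE, edgeR adjusted p = 0.00242), and its pseudogene copies held 10.8% as many counts as it did. COX15, needed to make haem a, and COX16 were lower in the same comparison (log2 -0.19 and -0.38, edgeR adjusted p = 0.0144 and 0.0299). COX10, COX11, COX17, COX18 and COX19, which serve haem a synthesis, copper delivery or membrane insertion, passed in no comparison.

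In the F1 head of complex V, where ATP is made, and its central stalk, 4 of 5 genes fell with STINGX, where 13.8% of all genes tested were lower. ATP5F1B (ENSG00000110955, chromosome 12, 56638175 to 56645984), the catalytic beta subunit, had 278, 279, 252 and 277 CPM in STINGX+TGFb libraries, 365, 378, 339 and 385 CPM in TGFb libraries and 377, 382, 347 and 352 CPM in control libraries. STINGX+TGFb libraries lay below all others and TGFb libraries overlapped control libraries. Its log2 fold change was -0.43 ± 0.05 SE with STINGX (edgeR adjusted p = 3.74e-05) and 0.01 ± 0.05 with TGFb (adjusted p = 0.924). ATP5F1A, the alpha subunit that alternates with it, fell by 0.35 (adjusted p = 7.2e-05), the rotating gamma subunit ATP5F1C by 0.31 (adjusted p = 0.000616) and the epsilon subunit ATP5F1E by 0.36 (adjusted p = 0.00283). ATP5F1D, the delta subunit, had a log2 value of -0.05 and wide spread, 10.4 to 22.0 CPM in STINGX+TGFb libraries and 12.5 to 26.2 CPM in TGFb libraries. ATP5F1C alone of the 5 also passed with TGFb (-0.17, adjusted p = 0.0276).

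ATP5IF1, the protein that blocks the synthase from running backwards as an ATPase, had 49.1, 53.1, 51.5 and 53.8 CPM in STINGX+TGFb libraries, 63.2, 70.8, 72.1 and 67.4 CPM in TGFb libraries and 76.0, 78.1, 66.3 and 74.6 CPM in control libraries. It fell with STINGX without overlap (-0.40 ± 0.06 SE, edgeR adjusted p = 0.000347), in all 28 alternative fits, and TGFb and control libraries overlapped. The F1 subunits it binds, ATP5F1B and ATP5F1A, had log2 values of -0.43 and -0.35 in the same comparison.

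In the membrane part and peripheral stalk of complex V, 4 of 12 genes fell with STINGX and 4 with TGFb, and 11 were lower in STINGX+TGFb than in control. Of all genes tested 13.8%, 12.8% and 17% were lower in the same order of comparisons. ATP5MF, subunit f, had 79.2, 76.2, 83.2 and 80.2 CPM in STINGX+TGFb libraries, 117, 112, 112 and 107 CPM in TGFb libraries and 131, 138, 113 and 114 CPM in control libraries. STINGX+TGFb libraries lay below all others (-0.49 ± 0.06 SE against TGFb, edgeR adjusted p = 8.95e-05), and the value for TGFb against control was -0.15 ± 0.06 (adjusted p = 0.117). It overlaps the readthrough gene ATP5MF-PTCD1, which stayed under 0.3 CPM in every library. ATP5PF fell with STINGX by 0.24 (adjusted p = 0.0414), a call lost with library total scaling.

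In the same group ATP5ME and ATP5PD passed at the TGFb step and not at the STINGX step, as did the subunit c gene ATP5MC2, described below. ATP5ME, subunit e, had 47.8, 50.3, 49.3 and 49.0 CPM in STINGX+TGFb libraries, 56.4, 50.6, 49.0 and 45.7 CPM in TGFb libraries and 69.5, 73.9, 59.5 and 58.1 CPM in control libraries. STINGX+TGFb libraries overlapped TGFb libraries (-0.04 ± 0.08 SE, adjusted p = 0.783), and TGFb libraries lay below control libraries (-0.37 ± 0.08, edgeR adjusted p = 0.00519, and 0.0550 without control replicates 1 and 2). ATP5PD, subunit d of the stalk, had 75.5, 78.8, 75.3 and 77.5 CPM in STINGX+TGFb libraries, 82.0, 78.3, 71.4 and 74.8 CPM in TGFb libraries and 94.1, 96.4, 87.7 and 87.4 CPM in control libraries. Its log2 values were 0.00 ± 0.05 SE with STINGX (adjusted p = 0.982) and -0.25 ± 0.05 with TGFb (edgeR adjusted p = 0.00279). ATP5ME and ATP5PD each overlap another gene on the opposite strand. ATP5PO, the subunit at the top of the stalk, had 55.2, 61.7, 55.2 and 82.9 CPM in STINGX+TGFb libraries, 94.4, 68.6, 73.5 and 94.7 CPM in TGFb libraries and 121, 94.1, 70.9 and 101 CPM in control libraries, and passed only in STINGX+TGFb against control (-0.60 ± 0.18 SE, edgeR adjusted p = 0.0254), a call lost when any of 5 single libraries was left out. The other genes of this group, ATP5MD, ATP5MG, ATP5MPL and ATP5PB, passed in neither step.

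The 3 subunit c genes, whose products form the same rotor ring, passed at different steps. ATP5MC1 had 34.0, 37.0, 34.0 and 32.8 CPM in STINGX+TGFb libraries, 41.5, 44.5, 42.0 and 37.4 CPM in TGFb libraries and 49.1, 52.5, 47.4 and 44.6 CPM in control libraries. It passed at both steps (-0.26 ± 0.07 SE with STINGX, edgeR adjusted p = 0.0124, and -0.23 ± 0.07 with TGFb, adjusted p = 0.0283). The STINGX call was lost in 4 of 28 alternative fits, with library total scaling and the 3 FPKM fits (adjusted p up to 0.228). The TGFb call was lost in 6, without control replicate 1, control replicate 2 or both, and without TGFb replicate 1, 3 or 4 (adjusted p up to 0.200). ATP5MC2 had 87.8, 94.0, 94.5 and 88.4 CPM in STINGX+TGFb libraries, 95.4, 92.8, 88.9 and 91.8 CPM in TGFb libraries and 123, 119, 105 and 102 CPM in control libraries. It was lower only at the TGFb step (-0.28 ± 0.06, edgeR adjusted p = 0.00372), with -0.02 ± 0.06 at the STINGX step (adjusted p = 0.875). ATP5MC3 had 50.8, 50.4, 50.3 and 50.5 CPM in STINGX+TGFb libraries, 60.4, 58.9, 61.7 and 58.1 CPM in TGFb libraries and 66.7, 69.9, 53.7 and 55.9 CPM in control libraries. It was lower at the STINGX step (-0.24 ± 0.08 SE, edgeR adjusted p = 0.0308), a call lost in 11 of 28 alternative fits, and stood at -0.04 ± 0.08 at the TGFb step (adjusted p = 0.745). Differences between these genes were not tested.

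**Figure D3:**
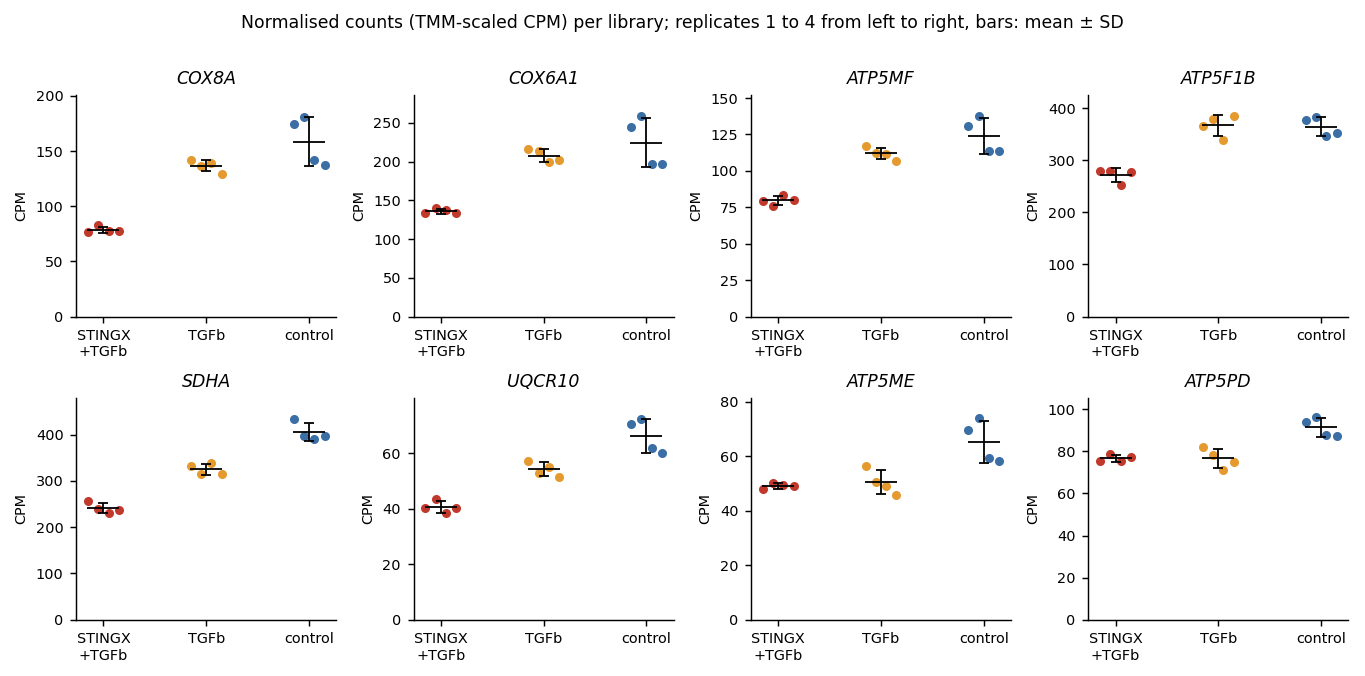
Normalised counts (TMM-scaled CPM) per library for 8 genes; points are replicates 1 to 4 from left to right, and bars give the mean ± SD of 4 libraries. COX8A, COX6A1, ATP5MF and ATP5F1B are lowest in the 4 STINGX+TGFb libraries, SDHA and UQCR10 step down in each treated group, and ATP5ME and ATP5PD overlap between STINGX+TGFb and TGFb.

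The mitochondrially encoded partners of complexes III to V fell with STINGX as well. Of 6 transcripts, 5 were lower in STINGX+TGFb than in TGFb and 3 lower in TGFb than in control, with 0 higher, where 13.8% and 12.8% of all genes tested were lower. MT-CYB, the ubiquinol-oxidising core of complex III, averaged 4719 CPM in STINGX+TGFb, 6217 CPM in TGFb and 6843 CPM in control libraries. The complex IV core genes MT-CO1, MT-CO2 and MT-CO3 had log2 fold changes of -0.37, -0.62 and -0.67 with STINGX (edgeR adjusted p = 5.97e-08, 1.46e-07 and 1.13e-06). MT-ATP8, of complex V, stood at -0.52 (adjusted p = 7.67e-06), while MT-ATP6 had 0.58 and did not pass (adjusted p = 0.429). These 2 genes overlap on the mitochondrial genome, so the division of counts between them is uncertain. Mitochondrially encoded genes as a whole took 8.16% to 8.46% of the counts in STINGX+TGFb, 8.77% to 9.46% in TGFb and 10.0% to 11.3% in control libraries.

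Genes that feed the complexes or supply their substrates were mixed. Among 8 carriers, 3 fell with STINGX and 0 rose: SLC25A3, the phosphate carrier of the synthase (-0.55, edgeR adjusted p = 3.06e-06), SLC25A5, an exchanger of ADP for ATP (-0.38, adjusted p = 0.00017), and ETFDH, which passes electrons from fatty acid oxidation to ubiquinone (-0.40, adjusted p = 0.00495). CYCS, cytochrome c itself, had 0.08 (adjusted p = 0.37). The 3 carriers are 37.5% of their list, beside 13.8% of all genes tested that were lower. Of 31 further assembly factors or associated genes of complexes III to V, 3 were higher and 1 lower with STINGX, and 2 were higher and 6 lower with TGFb. As shares, 9.68% were higher and 3.23% lower with STINGX, beside 13.7% and 13.8% of all genes tested. With TGFb 6.45% were higher and 19.4% lower, beside 13.2% and 12.8% of all genes. COA7, an assembly factor of complex IV, rose at both steps (0.19 with STINGX, edgeR adjusted p = 0.0136, and 0.27 with TGFb, adjusted p = 0.00179), and PET100 fell with STINGX (-0.40, adjusted p = 0.00298).

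Of 10 transcription regulators listed, 0 passed as lower and 1 as higher with STINGX, and 7 had negative values (median log2 -0.12). Of all genes tested 13.8% were lower and 13.7% higher with STINGX, and 12.8% lower and 13.2% higher with TGFb. Among the 10 regulators 4 were higher and 1 lower in TGFb than in control: PPRC1 (0.54, edgeR adjusted p = 5.2e-05), GABPB1 (0.40, adjusted p = 0.0072), ESRRA (0.44, adjusted p = 0.0311) and PPARGC1B (0.66, adjusted p = 0.04) were higher. PPARGC1A, a coactivator of mitochondrial genes, was lower with TGFb and rare throughout, at 0.411, 0.649, 0.0488 and 0.335 CPM in STINGX+TGFb libraries, 0, 0, 0.0765 and 0.212 CPM in TGFb libraries and 0.767, 1.49, 1.43 and 0.756 CPM in control libraries. With STINGX only GABPA passed (0.16, edgeR adjusted p = 0.0384), upward. It overlaps ATP5PF on the opposite strand. NRF1, TFAM, YY1 and CHCHD2 passed in neither step, at log2 values of -0.23 to -0.10 with STINGX and 0.00 to 0.13 with TGFb.

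Complex I and the ribosomes were measured for comparison. In STINGX+TGFb against TGFb, 9 of 48 nuclear genes of complex I were lower and 2 higher (median log2 -0.11), as were 11 and 3 of 78 mitochondrial ribosomal protein genes (median -0.03) and 12 and 0 of 89 cytosolic ribosomal protein genes (median -0.12). As shares, 18.8%, 14.1% and 13.5% of these lists were lower, beside 13.8% of all genes tested. In TGFb against control the counts were 7 and 2, 9 and 1, and 8 and 1 in the same order of lists (medians -0.10, -0.04 and -0.10), or 14.6%, 11.5% and 8.99% lower beside 12.8% of all genes. In STINGX+TGFb against control, 20 genes were lower and 3 higher, 19 and 2, and 38 and 1 in the same order of lists. Their medians were -0.26, -0.08 and -0.21. As shares, 41.7%, 24.4% and 42.7% of these lists were lower, beside 17% of all genes tested and 66.1% of the respiratory genes. The respiratory genes of complexes II to V had medians of -0.18, -0.15 and -0.38 in these comparisons, and the differences between the lists were not tested.

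The summed share of the respiratory genes among all counts was lowest in STINGX+TGFb and highest in control libraries. It was 0.374% to 0.387% of the counts in STINGX+TGFb, 0.415% to 0.433% in TGFb and 0.452% to 0.517% in control libraries, without overlap. In TMM-scaled CPM the sums were 3539 to 3675 CPM in STINGX+TGFb, 4316 to 4562 CPM in TGFb and 4467 to 5263 CPM in control libraries, so TGFb and control overlapped, as they did in summed TPM (8028 to 8421 TPM and 8373 to 9779 TPM). The share of nuclear genes of complex I was 0.197% to 0.203%, 0.191% to 0.202% and 0.208% to 0.238% in these groups, so that STINGX+TGFb and TGFb overlapped, but in TMM-scaled CPM they did not (1879 to 1937 CPM and 1980 to 2126 CPM). Among complexes II to V, complex V took the largest share, at 0.168% ± 0.00396 in STINGX+TGFb, 0.188% ± 0.00426 in TGFb and 0.215% ± 0.0136 in control libraries (SD, n = 4 each). Weighted by length, the summed TPM of complex V overlapped between STINGX+TGFb (2908 to 3218 TPM) and TGFb (3183 to 3365 TPM), while those of complexes II, III and IV did not overlap. In TMM-scaled CPM the sums of complex V did not overlap either (1560 to 1644 CPM and 1892 to 2023 CPM). TPM depends on the estimated split between transcripts, and ATP5F1A ran from 138 to 273 TPM but from 323 to 336 CPM in STINGX+TGFb libraries. In bulk libraries, fewer cells of a kind and less RNA of these genes per cell cannot be told apart.

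**Figure D4:**
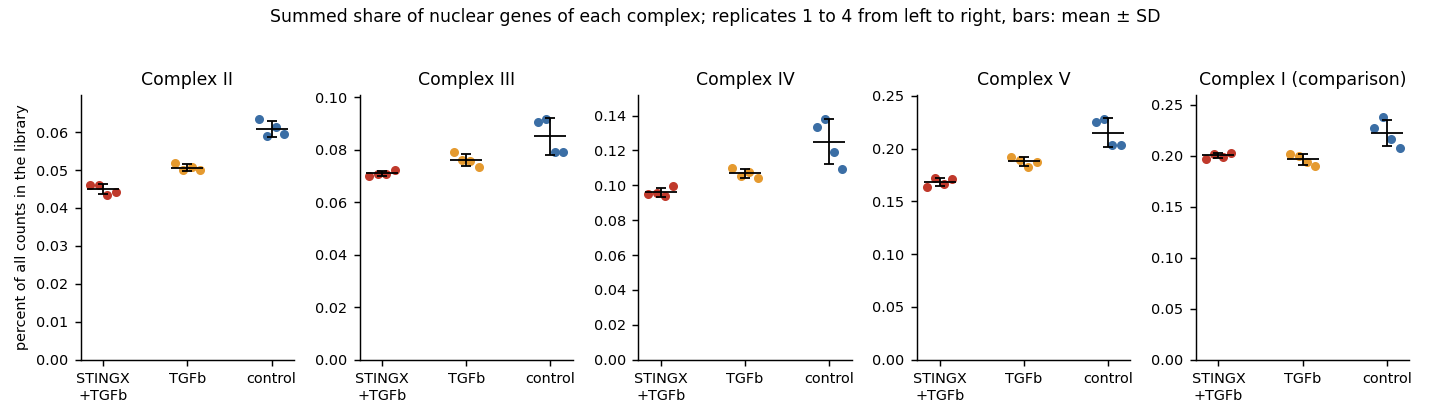
Summed counts of the nuclear genes of each complex as a percentage of all counts in the library; points are replicates 1 to 4 from left to right and bars give the mean ± SD of 4 libraries. For complexes II to V the 4 STINGX+TGFb libraries lie below the 4 TGFb libraries (complex V, 0.168% and 0.188% on average), whereas for complex I these groups overlap on this scale and not in TMM-scaled CPM.

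Over all protein-coding genes, median changes were ordered by transcript length at both steps. Among the respiratory genes they were so ordered with TGFb but not with STINGX, where the shortest genes had the smallest median fall. The part of transcript length in the changes was not tested. These lengths rest on the estimated split of counts between transcripts, which put UQCRB at 4996 bases and ATP5MC3 at 4524 bases. The length ranges of the respiratory genes are uncertain to that extent. The respiratory genes had a median count-weighted transcript length of 1118 bases. Protein-coding genes with transcripts under 700 bases (237 genes) had median log2 fold changes of -0.15 in STINGX+TGFb against TGFb and -0.19 in TGFb against control, and those of 2000 bases or longer (10573 genes) had 0.05 and 0.03. Respiratory genes under 700 bases (13 genes) had medians of -0.08 and -0.22, with 3 and 4 lower. The 8 of 700 to 1000 bases had -0.32 and -0.20, with 5 and 1 lower, against -0.06 and -0.09 for all 552 protein-coding genes of that range. The 23 respiratory genes of 1000 to 2000 bases had -0.24 and -0.14, with 8 and 4 lower, against -0.01 and -0.07 for all 3228 protein-coding genes of that range. The 15 of 2000 bases or longer had -0.18 and -0.05, with 5 and 2 lower. In STINGX+TGFb against control, 33.3% of all protein-coding genes under 700 bases were lower (median -0.31). Of those of 2000 bases or longer 17.8% were lower there (median 0.08).

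**Figure D5:**
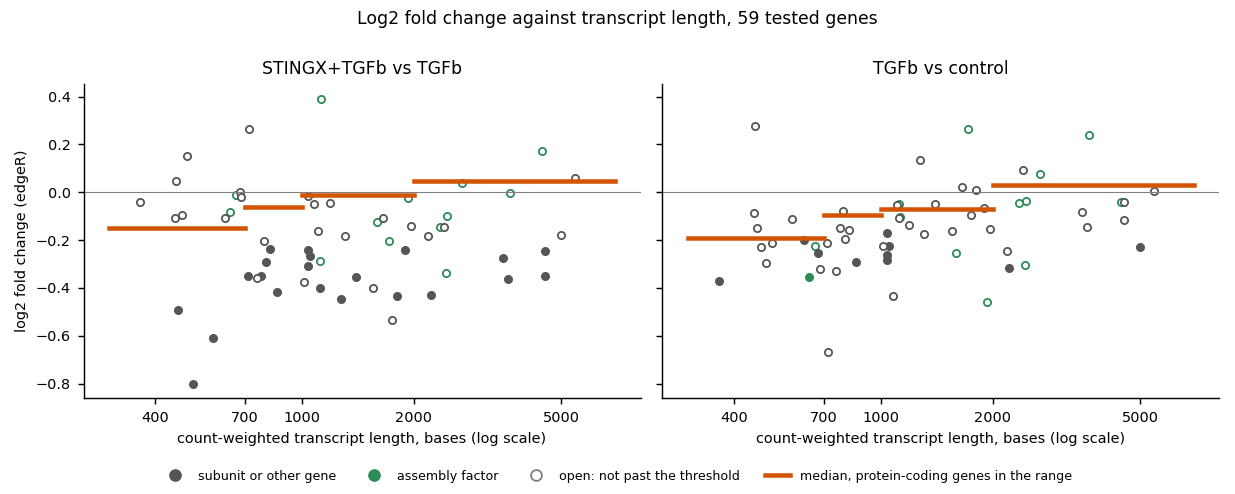
Log2 fold change (edgeR) of the 59 tested genes against count-weighted transcript length on a log axis, for STINGX+TGFb against TGFb (left) and TGFb against control (right); filled points passed an adjusted p under 0.05 and green points are assembly factors. Horizontal bars give the median of all protein-coding genes in 4 length ranges, from -0.15 to 0.05 at left and from -0.19 to 0.03 at right.

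The split of counts between transcripts of UQCRH differed between groups, a gene picked out after its values were seen. The transcript UQCRH-205, annotated as a target of nonsense-mediated decay, took 25.2%, 25.3%, 24.4% and 25.6% of the UQCRH counts in STINGX+TGFb libraries. It took 15.5%, 15.1%, 12.1% and 13.0% in TGFb libraries and 15.4%, 17.2%, 14.96% and 15.5% in control libraries. The main coding transcript UQCRH-201 took 72.0% ± 1.17, 84.0% ± 2.48 and 82.1% ± 1.27 in the same order (SD, n = 4 each). No library of STINGX+TGFb overlapped the others in either share, while the gene total did not pass (-0.11 ± 0.06 SE, edgeR adjusted p = 0.184). COX8A, SDHAF1, UQCRFS1 and UQCRHL were each counted on a single transcript. For ATP5F1A and COX14 the split between transcripts varied widely within groups, so their TPM values carry that uncertainty. TPM values of ATP5MC3 and ATP5PB, which spread more within groups than their CPM values, are uncertain too. Of the 59 genes, 32 have named pseudogene copies (111 in all), of which those of SDHA and COX20 alone held over 5% as many counts as the gene. A tested gene overlaps on the same strand for 10 members and on the opposite strand alone for 14, and no source used here says whether reads were counted by strand, so these counts are uncertain.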

How the data were processed

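Polyadenylated RNA of 12 LX2 libraries was analysed, 4 per group, grouped by the labels. The submitters' processing notes name cutadapt, HISAT2, StringTie and edgeR and the build GRCh38, with no versions, annotation release or use of strand. Estimated counts of genes and transcripts, as whole numbers, and FPKM values were deposited by the authors, and the length behind FPKM is not given in the sources used here.

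Gene counts were filtered (filterByExpr, minimum count 10, minimum total 15), scaled by TMM and fitted with edgeR 4.0.16 (quasi-likelihood, robust, 9 residual degrees of freedom, R 4.3.3), all 12 libraries in 1 fit. P-values were Benjamini-Hochberg adjusted over 21328 genes, with a threshold of 0.05. The fit was tested on simulated data. The estimated counts needed no rounding. CPM values printed are TMM-scaled and, like the TPM values (GENCODE v29 lengths), were computed from the deposited counts. Each SE was obtained from the log2 fold change and its F statistic. The total count per library, 54035320 to 70787741, sets the counting precision, and floors of 3 counts cover counting error only.

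Genes given per library were up to 8 largest rises and falls past the threshold in each comparison, the 3 highest and lowest by FPKM, all of complex II, the isoform pairs, subunit c genes and ATP5IF1, with regulators and mitochondrially encoded partners by level or change. The rule for members went by name and used no measured value. The rule and the lists were nevertheless set with earlier results of these data known. Alternatives were limma 3.58.1, DESeq2 1.42.0, other scalings and filters, log2(FPKM + 1) and log2(FPKM + 0.1), a replicate block and omitted libraries.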

Additional observations from a re-analysis of the deposited data

Results flagged for a closer look

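In 7 of 71 groups of 4 libraries looked at, 1 library lay far from the other 3 (Dixon's test), and chance gives about 1 in 20. ATP5F1B was 252 CPM in STINGX+TGFb replicate 3, below 277 to 279 CPM in the others. COX14 was 16.8 CPM in STINGX+TGFb replicate 2, below 18.7 to 18.9 CPM in the others. In that same library COX4I1 was highest, at 112 CPM against 109.8 to 110.0 CPM, and so was COX8A, at 82.8 CPM against 76.8 to 77.3 CPM. SDHA was 434 CPM in control replicate 1, above 391 to 398 CPM in the others. ATP5MGL had 0.0342 CPM in TGFb replicate 2 and 0.0301 CPM in control replicate 3 and 0 in the other libraries of both groups, all under the floor of 3 counts.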

How the results depend on the processing

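In STINGX+TGFb against TGFb, 13 genes were lower and 2 higher, in place of 21 and 0, with library size alone, log2(FPKM + 1), log2(FPKM + 0.1) and log2(FPKM + 1) without a filter. In these fits 4.78% to 8.94% of all genes were lower and 11.8% to 23.4% higher. Leaving out 1 library gave 16 to 22 lower and 0 higher, where 11.7% to 13.6% of all genes were lower. In STINGX+TGFb against control, 1 was higher with library size alone, where 22.0% of all genes were higher. With 1 library left out 32 to 41 were lower, where 14.5% to 16.3% of all genes were lower. In TGFb against control (11 lower), 17 were lower with upper quartile scaling and with log2(FPKM + 1) without a filter, and 24 with library size alone, log2(FPKM + 1) and log2(FPKM + 0.1). Of all genes 15.04% were lower with upper quartile scaling and 8.23% with log2(FPKM + 1) without a filter. The share was 16.3% to 16.5% with library size alone, log2(FPKM + 1) and log2(FPKM + 0.1). Leaving out 1 library in TGFb against control gave 7 to 17 lower and 0 to 1 higher. There were 7 lower without control replicate 1 and without control replicate 2, and 17 lower without control replicate 4. Over all genes 10.7% to 12.1% were lower and 11.3% to 12.4% higher in these fits with 1 library left out. Without control replicates 1 and 2 there were 3 lower and 2 higher, and without control replicates 3 and 4 there were 31 lower, where 9.74% and 12.5% of all genes were lower. The cause of these shifts was not tested. No direction reversed among called values. With the replicate number as a block, 11, 21 and 40 genes were lower in TGFb against control, STINGX+TGFb against TGFb and STINGX+TGFb against control, and 0 higher. Of all genes 12.2%, 13.5% and 16.4% were lower in these fits. Deviations of same-numbered libraries from their group means correlated at -0.038 to 0.045 over 12 pairs, taken over all genes tested. This gave no sign that the numbers pair samples, but it cannot exclude a batch shared by some libraries. Depth limits the 5 genes left out by the filter, which held 0 to 15 counts per library.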
